A study of Homo sapiens with 12 samples.

Results

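The lysosome genes described here are 36 of the 26485 genes in a table of RNA-seq counts from HEK293 cells, a human line derived from embryonic kidney. They were chosen by name as widely used markers and enzymes of the lysosome, together with *TFEB* and *TFE3*, 2 transcription factors that act on such genes. The rule itself uses no value of this experiment, but it was made with earlier results of these data known. The wild-type cells were transfected with 1 μg of a plasmid and harvested 48 hr later. The plasmid carried, from the CMV promoter, PEG10 gag-pol (the frameshifted full-length protein of a domesticated retrotransposon), PEG10 gag, nucleocapsid (NC, the C-terminal fragment of gag with its CCHC zinc finger) or, as control, LifeAct-Dendra2, a fluorescent label of actin filaments. Each of the 4 constructs has 3 replicates, 12 libraries in all, and the replicates came from 3 passages of the cells. All groups are one cell line and all were transfected, so the control is not an untransfected cell, and the share of cells that took up each plasmid is not analysed here.

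Lysosomes are acidic organelles in which hydrolases break down proteins, sugars, lipids and nucleic acids delivered by endocytosis and autophagy. Many of their enzymes are glycoproteins made in the endoplasmic reticulum and carried to the lysosome by receptors for mannose 6-phosphate, and a proton pump, the V-ATPase, keeps the lumen acidic. TFEB and TFE3 are held in the cytosol when nutrients are plentiful and move to the nucleus on starvation or lysosomal stress. There they bind a palindrome built on the E-box core CACGTG, known as the CLEAR element, before the start of many lysosome genes. Inherited loss of many of these genes causes storage diseases, several of which affect neurons.

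The promoters of the lysosome genes were read for this palindrome because the genes that fell with PEG10 constructs can be set beside it. Of the 36 genes, 29 had a promoter in the RefSeq table of GRCh38.p14, which holds 250 bases before and 50 bases after a start site. *LAMP2*, *CTSB*, *HEXA*, *NAGLU*, *MANBA*, *ASAH1* and *PSAP* had none. The core CACGTG, which reads the same on both strands, was found in 9 of the 29 promoters (31.0%), those of *CD63*, *CLN3*, *CTSA*, *CTSD*, *CTSF*, *GAA*, *LAMP1*, *MCOLN1* and *NEU1*. Among all 27305 promoters of the table, 7.43% held it, and among those of genes tested in this experiment 9.68%. In the lists of related genes described below, the share ran from 7.14% (autophagy) to 31.6% (nutrient sensing), so the core is not particular to the genes studied here. Windows of 30 bases around the core are printed 5′ to 3′ on the strand of the gene, with the core in capitals and its distance counted from its first base to the RefSeq start. They show the genes with the core that fell with both gag-pol and NC, and *GAA*, which holds the core and was not called. *CD63*, whose core lies 180 bases before the start, was not called either, and its window is not printed.
MCOLN1, chr19:7522571-7522600, forward strand, 41 bases before the start: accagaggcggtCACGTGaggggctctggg
MCOLN1, chr19:7522598-7522627, forward strand, 14 bases before the start: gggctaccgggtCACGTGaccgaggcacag
CLN3, chr16:28492087-28492116, reverse strand, 30 bases before the start: aaaacctctgagCACGTGatgggggaacac
CLN3, chr16:28492058-28492087, reverse strand, 1 bases before the start: cgcgggtgctgtCACGTGatccgacaaacg
CTSA, chr20:45891281-45891310, forward strand, 42 bases before the start: gaggaagactgtCACGTGgcgccggagttc
CTSA, chr20:45891298-45891327, forward strand, 25 bases before the start: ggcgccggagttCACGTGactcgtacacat
CTSD, chr11:1763957-1763986, reverse strand, 47 bases before the start: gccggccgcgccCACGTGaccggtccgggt
NEU1, chr6:31862930-31862959, reverse strand, 126 bases before the start: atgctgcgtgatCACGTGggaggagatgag
LAMP1, chr13:113297035-113297064, forward strand, 192 bases before the start: accaggccgggtCACGTGggtccagggtca
LAMP1, chr13:113297199-113297228, forward strand, 28 bases before the start: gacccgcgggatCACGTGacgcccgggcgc
LAMP1, chr13:113297226-113297255, forward strand, 1 bases before the start: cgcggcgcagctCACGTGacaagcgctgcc
GAA, chr17:80101493-80101522, forward strand, 76 bases before the start: gggaggccgcgtCACGTGacccaccgcggc
GAA, chr17:80101538-80101567, forward strand, 31 bases before the start: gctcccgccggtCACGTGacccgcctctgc

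A longer palindrome, TCACGTGA, and the full CLEAR element, which is the same 8 letters preceded by G and followed by C, both contain the core, so the 3 counts are nested. TCACGTGA was present in 5 of the 29 promoters (*CLN3*, *CTSA*, *GAA*, *LAMP1* and *MCOLN1*), against 1.04% of all promoters and 1.66% of those of genes tested. In the lists of related genes its share ran from 3.57% (autophagy) to 19.0% (sorting to the lysosome). The full element was in the promoters of *GAA* and *MCOLN1*, against 0.381% of all promoters and 0.671% of those of genes tested. *LAMP1* held 6 cores, 4 of them in a cluster whose first bases lie 192, 176, 159 and 142 bases before the start. A match describes letters in this window and not a bound site, and RefSeq's first listed start need not be the start used in these cells.

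Each library held between 30625725 and 45316749 counts, and the lysosome genes together took up 0.242 to 0.327% of them. The transfected gene served as the check of the labels: *PEG10* took up 0.0230 to 0.0346% of counts in control cells. Its share was 2.80 to 7.35% in cells given gag-pol, 3.78 to 6.10% in those given gag and 0.238 to 0.389% in those given NC. HEK293 cells express epithelial, mesenchymal and neuronal genes, and all 7 genes of such a list (*VIM*, *KRT8*, *KRT18*, *NEFL*, *NEFM*, *INA* and *PAX2*) were detected, between 41 and 27752 counts per library. By edgeR at an adjusted p under 0.05, *NEFL* was higher than control with gag-pol and NC, and *VIM* with NC. The others did not pass this threshold against control. Of 8 macrophage and leukocyte markers 3 passed the filter on low counts, and of 6 fibroblast markers 3. The leukocyte-defining *PTPRC* had 0 counts in 10 libraries and at most 6. Because lysosomes abound in macrophages, the values of the *CD14* receptor are given beside the results below. A lower count in bulk RNA cannot tell fewer cells expressing a gene from less RNA per cell.

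In control cells, levels were compared as CPM per kb, counts scaled to library size and to transcript length, with GENCODE release 44 transcript lengths. *PSAP*, the precursor of the saposins that help degrade sphingolipids, was the highest at 189 ± 29.9 CPM per kb (SD, n = 3), followed by the tetraspanin *CD63* at 153 ± 16.3 and the alpha-galactosidase *GLA* at 101 ± 8.13. *GRN*, which encodes progranulin, reached 66.4 ± 15.7 CPM per kb, and its SD reached down to those of *CTSZ*, *GUSB*, *CTSB* and *CTSD*. From *CTSZ* (52.4 ± 2.57) through *GUSB*, *CTSB*, *MAN2B1*, *CTSD*, *PPT1* and *LAMP1* (40.4 ± 8.5), the ranges of mean ± SD of neighboring genes in this order overlapped. *MCOLN1* stood at 15.5 ± 6.17 CPM per kb and *NEU1* at 15.1 ± 3.68, within each other's SD. The factor *TFE3* (37.1 ± 3.37) was higher than *TFEB* (9.83 ± 0.783), and these ranges did not overlap. The lowest gene tested was the sphingomyelinase *SMPD1* at 3.64 ± 0.415 CPM per kb. The cysteine protease *CTSF* had 0 to 8 raw counts in each library and did not pass the filter, which left 35 genes tested.

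**Figure D1:**
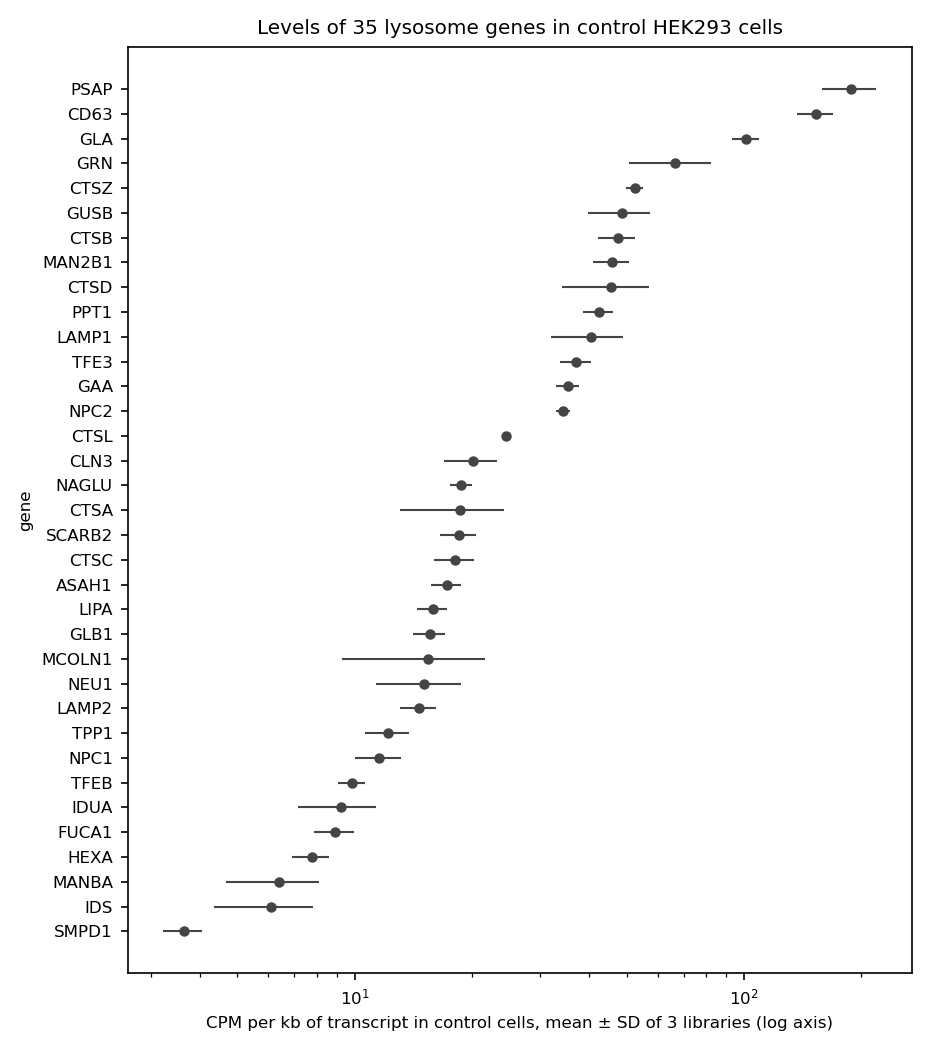
Levels of the 35 lysosome genes tested in control cells, in CPM per kb of transcript on a log axis. Points are means of 3 libraries and lines the SD. The levels run from 189 for PSAP to 3.64 for SMPD1, and the SD ranges of most neighbors overlap.

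The first question was how each PEG10 construct changed the lysosome genes against control cells. With gag-pol, 10 of 35 genes fell and none rose at an adjusted p under 0.05 (quasi-likelihood test of edgeR, Benjamini-Hochberg method over 17176 genes). Below, called means past this threshold by edgeR unless DESeq2 is named. Of the genes above control, 1 had an unadjusted p under 0.05 and DESeq2 called none. The 10 were *MCOLN1*, *NEU1*, *CTSD*, *GRN*, *CTSA*, *GUSB*, *CLN3*, *TPP1*, *LAMP1* and *GLA*, and their falls ran from 17.8 to 33.5%. Of all genes tested, 5.83% fell and 5.48% rose with gag-pol (11.3% in all). With NC, 8 of 35 fell, all of them among the 10 that fell with gag-pol, and *CTSC* rose. In that comparison 5.15% of all genes fell and 6.04% rose. With gag, only *GRN* and *TPP1* were called, both lower, where 0.384% of all genes fell and 0.699% rose (1.08% in all). *GRN* fell with all 3 constructs. DESeq2, run as an alternative, also called *PSAP* with gag-pol, *GUSB* with NC, and *CTSD*, *PSAP*, *SCARB2* and *TFE3* with gag, of which only *TFE3* was higher.

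The 3 comparisons share the control libraries, so the genes they have in common are given as counts and not as independent results. The median log2 fold change of the 35 genes was -0.09 for gag-pol, -0.13 for gag and -0.02 for NC, where the median of all genes was within 0.02 of 0 in each comparison. Of the 35 genes, 24 were below control in gag-pol cells, 27 in gag cells and 18 in NC cells. In total 24 of the 35 genes were not called against control with any construct by edgeR, and 21 by neither edgeR nor DESeq2. The matching shares of all genes were not counted, so these counts cannot be read as few or many.

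**Figure D2:**
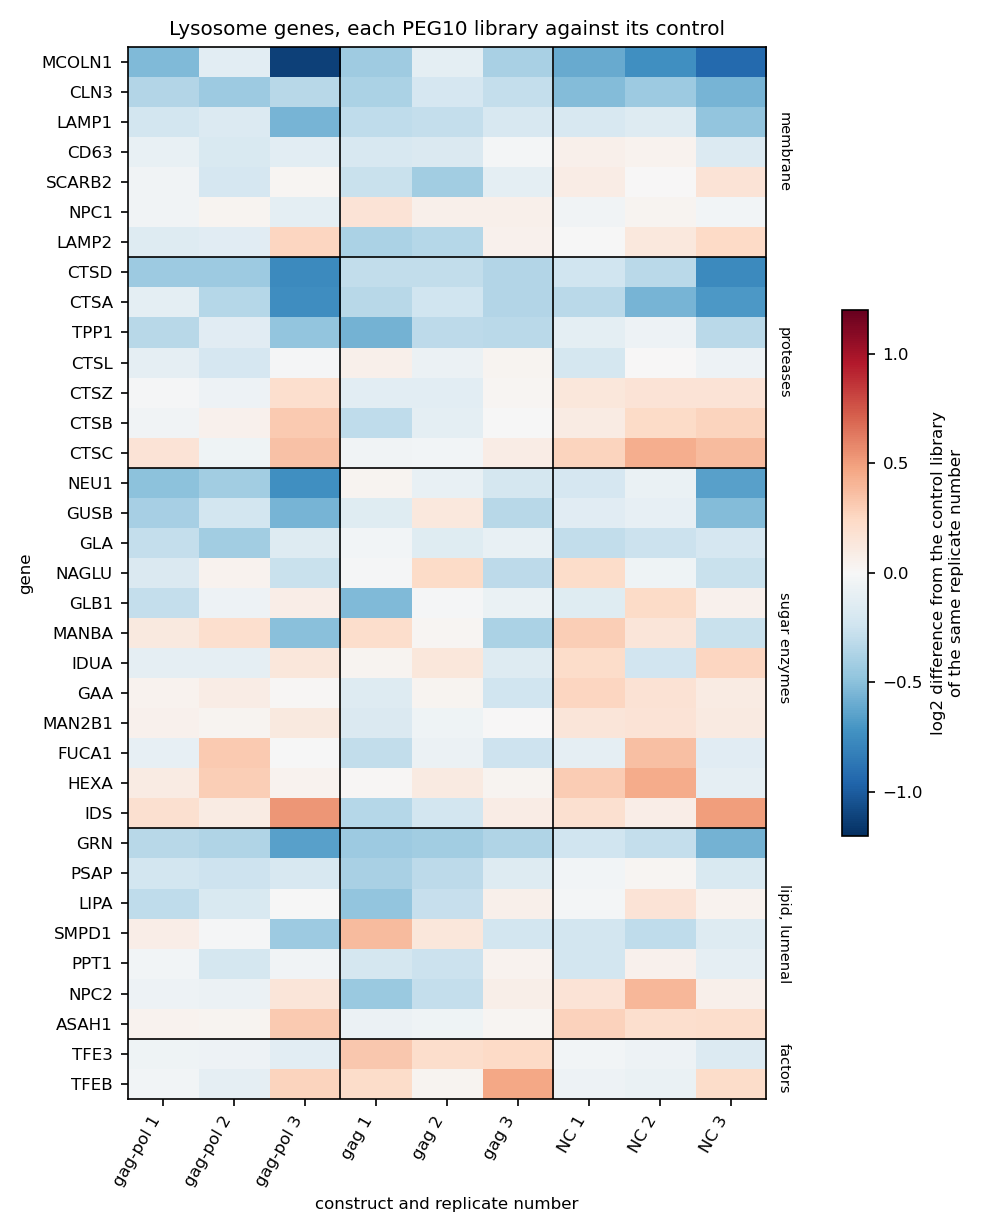
Log2 difference of each PEG10 library from the control library of the same replicate number, for 35 lysosome genes (rows, grouped by role) and 9 libraries (columns). Blue is lower and red higher than control. MCOLN1, CLN3, LAMP1, CTSD, CTSA, TPP1, GLA and GRN are blue in all 9 columns.

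**Figure D3:**
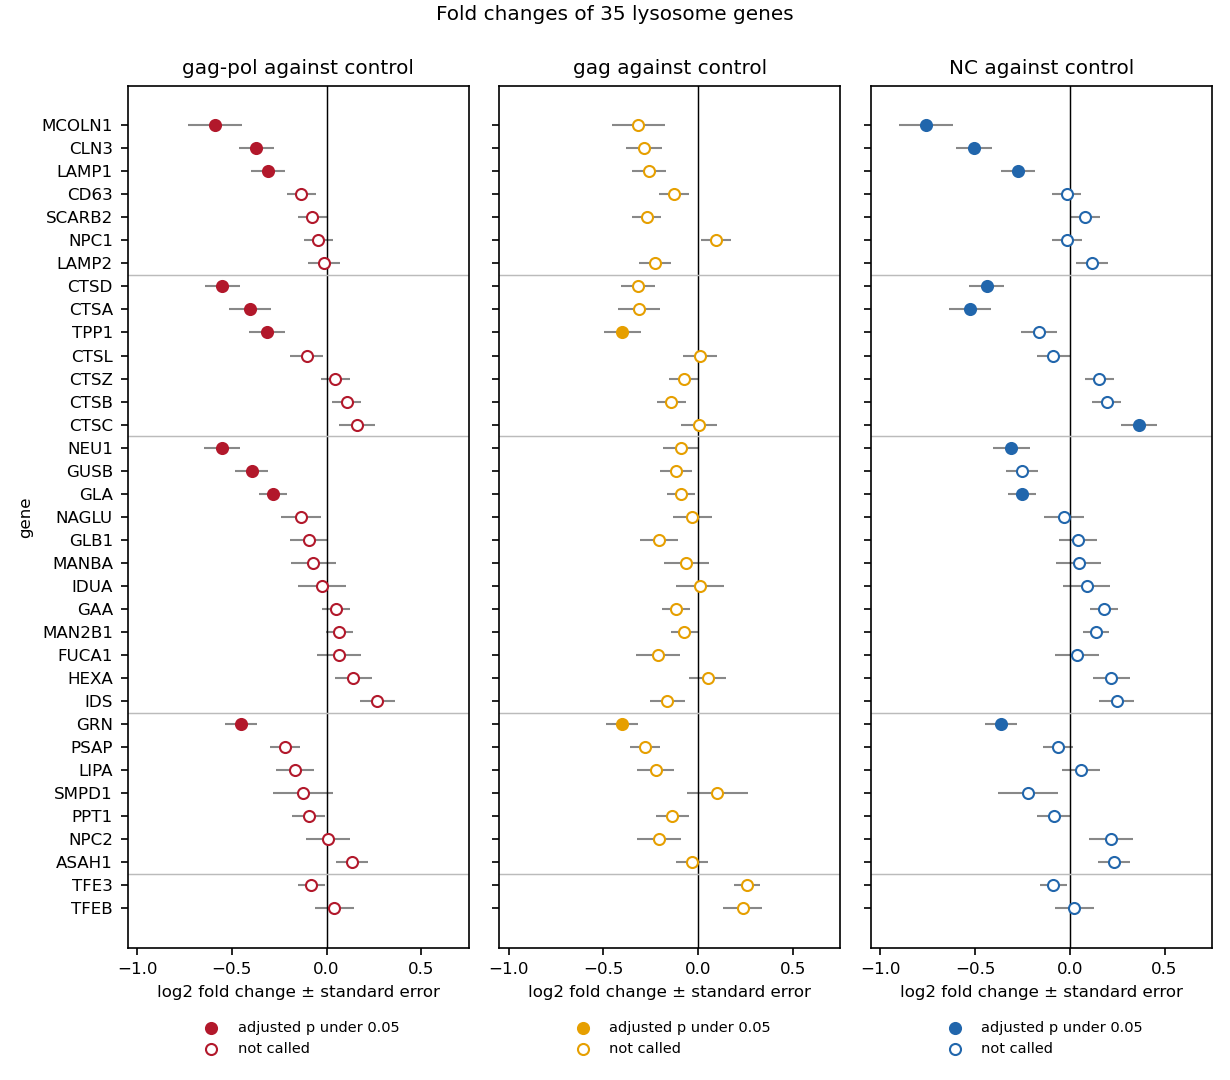
Log2 fold change against control from the fit (points) with its standard error (lines) for 35 lysosome genes in the 3 comparisons. Filled points have an adjusted p under 0.05: 10 for gag-pol, 2 for gag and 9 for NC.

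Among the 7 membrane proteins, 3 fell with gag-pol and the same 3 with NC. *MCOLN1* (chromosome 19, 7522624 to 7534009) encodes TRPML1, the channel that releases calcium from lysosomes. Its normalized counts in replicates 1, 2 and 3 were 1212, 728 and 1694 in control cells, 838, 665 and 779.8 with gag-pol, 904, 669 and 1295 with gag and 799, 436 and 889 with NC. The highest value was the third control library and the lowest the second NC library, and every group overlapped the control range. Within each replicate number all 3 constructs lay below control. The log2 fold change was -0.59 (standard error 0.14, adjusted p = 0.0115) with gag-pol, -0.76 (standard error 0.14, adjusted p = 0.00343) with NC and -0.32 (standard error 0.14, adjusted p = 0.322) with gag, and only gag-pol and NC were called. *PNPLA6*, the next gene on the same strand, which was named after its values were seen, shares 6 exon bases with *MCOLN1*, and its own log2 fold changes were -0.71 (adjusted p = 1.09e-05), -0.69 (adjusted p = 3.62e-05) and -0.39 (adjusted p = 0.013).

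*CLN3* (chromosome 16, 28474111 to 28495575) encodes a membrane protein that is lost in juvenile Batten disease. It measured 1274, 1076 and 1466 normalized counts in control cells, 998, 797 and 1164 with gag-pol, 982, 936 and 1204 with gag and 887, 795 and 996 with NC. The NC libraries lay below all control libraries, and the gag-pol range overlapped control only through the second control library. *CLN3* fell by 22.7% with gag-pol, a log2 fold change of -0.37 (standard error 0.093, adjusted p = 0.0121), and by 29.5% with NC, a log2 fold change of -0.51 (standard error 0.093, adjusted p = 0.00243). Its exons share 573 bases with *APOBR* on the opposite strand, and *APOBR* was not called against control with any construct.

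*LAMP1* (chromosome 13, 113297239 to 113323672), a main glycoprotein of the lysosomal membrane, had 4259.9, 3175 and 4880.0 normalized counts in control cells, 3660.0, 2842 and 3317 with gag-pol, 3441, 2611 and 4263 with gag and 3721, 2851 and 3508 with NC. The second library was the lowest in each group, and all 3 groups overlapped the control range. Its log2 fold change was -0.31 (standard error 0.089, adjusted p = 0.0259) with gag-pol, -0.28 (standard error 0.089, adjusted p = 0.0476) with NC and -0.26 (standard error 0.089, adjusted p = 0.169) with gag, which was not called. The related *LAMP2*, whose protein also takes up substrates of chaperone-mediated autophagy, gave -0.01, 0.12 and -0.23 for the same 3 constructs and was not called in any.

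*SCARB2* (chromosome 4, 76158737 to 76234536), a membrane protein that carries an enzyme to lysosomes, measured 2894, 3569 and 3359.8 in control cells, 2813, 3105 and 3404 with gag-pol, 2401, 2665 and 3092 with gag and 3070.1, 3586 and 3756 with NC. Gag libraries were below the control library of their number in all 3 replicates, and the change against control was not called by edgeR (log2 fold change -0.27 (standard error 0.076, adjusted p = 0.088)) but was by DESeq2 (adjusted p = 0.0238). *CD63* ranged from 4823 to 6609 normalized counts over the 12 libraries and *NPC1*, which exports cholesterol, from 1774 to 2475, and neither was called in any comparison of constructs.

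Of the 7 proteases tested, *CTSD*, *CTSA* and *TPP1* fell with gag-pol. *CTSD* (chromosome 11, 1752752 to 1764573), the main aspartic protease of lysosomes, had 3494, 2642 and 4410.2 normalized counts in control cells and 2576, 1950.2 and 2599 with gag-pol, so that all gag-pol libraries lay below all control libraries. With gag it measured 2841, 2150.2 and 3456 and with NC 2957, 2111 and 2605, and both groups overlapped control. The fall was 31.7% with gag-pol, a log2 fold change of -0.55 (standard error 0.091, adjusted p = 0.000739), and 26.3% with NC, a log2 fold change of -0.44 (standard error 0.091, adjusted p = 0.0049). With gag the log2 fold change was -0.32 (standard error 0.091, adjusted p = 0.0916), which DESeq2 called (adjusted p = 0.0447).

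*CTSA* (chromosome 20, 45890144 to 45898949) encodes the carboxypeptidase that also protects the enzymes NEU1 and GLB1 in a complex. Its counts were 1122, 1038 and 1745 in control cells, 1032, 820.4 and 1039 with gag-pol, 889, 878 and 1363 with gag and 897, 705 and 1085 with NC. The third control library stood above all others, and the groups overlapped. The log2 fold change was -0.40 (standard error 0.11, adjusted p = 0.0204) with gag-pol and -0.53 (standard error 0.11, adjusted p = 0.00538) with NC. *CTSA* shares 959 exon bases with *NEURL2* and 329 with *PLTP*, both on the opposite strand, and neither was called against control. *TPP1*, a tripeptidyl peptidase, had group means of 1602 ± 207 in control cells, 1282 ± 64.7 in gag-pol cells, 1210.5 ± 154 in gag cells and 1425 ± 138 in NC cells (SD, n = 3). It fell by 19.6% with gag-pol and by 24.2% with gag, and its log2 fold change with NC was -0.16 (standard error 0.10, adjusted p = 0.279).

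*CTSC* (chromosome 11, 88265069 to 88359684), the dipeptidyl peptidase that activates serine proteases of immune cells, went the other way. It measured 1286, 1419 and 1120.3 in control cells, 1439, 1373 and 1432 with gag-pol, 1251, 1389.7 and 1191 with gag and 1550.4, 1924 and 1456 with NC. All NC libraries lay above all libraries of control and gag. Its log2 fold change with NC was 0.36 (standard error 0.094, adjusted p = 0.0163), and with gag-pol it was 0.16 (standard error 0.094, adjusted p = 0.285). *CTSB*, the most abundant cysteine protease here by counts, ran 5803, 7191 and 6928 in control cells, 5632, 7439 and 8604 with gag-pol, 4712, 6610.4 and 6921 with gag and 6203, 8428 and 8332 with NC. The first library of each construct was its lowest, and no change against control was called. *CTSL* and *CTSZ* were not called against control either, with log2 fold changes between -0.11 and 0.16.

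Among the 12 sugar-cleaving enzymes and sulfatase, *NEU1*, *GUSB* and *GLA* fell with gag-pol. *NEU1* (chromosome 6, 31857659 to 31862905), the lysosomal sialidase, had 2088, 1368 and 2235 normalized counts in control cells, 1486, 1025 and 1345 with gag-pol, 2137, 1289.7 and 1925 with gag and 1814, 1297 and 1427 with NC. Replicate 2 was the lowest of every group, and the gag libraries covered nearly the same range as control. The log2 fold change was -0.55 (standard error 0.10, adjusted p = 0.00124) with gag-pol and -0.31 (standard error 0.10, adjusted p = 0.0412) with NC, and with gag it was -0.09 (standard error 0.10, adjusted p = 0.743).

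*GUSB* (chromosome 7, 65960684 to 65982215), the beta-glucuronidase, measured 4111, 3229.9 and 4671 in control cells, 3122, 2775 and 3177 with gag-pol, 3725, 3535 and 3715 with gag and 3752, 3016 and 3257 with NC. All gag-pol libraries lay below all control libraries. Its log2 fold change was -0.40 (standard error 0.086, adjusted p = 0.00526) with gag-pol and -0.25 (standard error 0.086, adjusted p = 0.0579) with NC, which missed the threshold by edgeR and passed it by DESeq2 (adjusted p = 0.0443). *GUSB* has near-identical copies elsewhere in the genome, so its counts are uncertain. *GLA*, which is lost in Fabry disease, had means of 5021 ± 403 in control cells, 4150.2 ± 659.9 in gag-pol cells, 4729.8 ± 550.2 in gag cells and 4225 ± 375 in NC cells (SD, n = 3). It fell by 17.8% with gag-pol and 15.9% with NC. Its exons share 557 bases with *RPL36A* on the opposite strand, which was not called.

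*IDS* (chromosome X, 149476988 to 149521096), the iduronate sulfatase, measured 1702, 2244 and 1258 in control cells, 1951, 2401 and 1820.0 with gag-pol, 1346, 1921 and 1339.8 with gag and 1939, 2367 and 1783 with NC. It was highest in replicate 2 of every construct, and a pseudogene copy makes its counts uncertain. Against control the log2 fold change was 0.27 (standard error 0.092, adjusted p = 0.0594) with gag-pol and 0.25 (standard error 0.092, adjusted p = 0.0813) with NC, neither of which was called. The remaining 8 enzymes of this group, *GLB1*, *GAA*, *HEXA*, *IDUA*, *NAGLU*, *MAN2B1*, *MANBA* and *FUCA1*, were not called against control with any construct, and their log2 fold changes lay between -0.21 and 0.22.

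Of the 7 lipid enzymes and small lumenal proteins, only *GRN* was called against control by edgeR, and DESeq2 also called *PSAP*. *GRN* (chromosome 17, 44345246 to 44353106) encodes progranulin, whose partial loss causes frontotemporal dementia. It had 4679, 4501 and 6755 normalized counts in control cells, 3708, 3494 and 4296 with gag-pol, 3467, 3366 and 5260.3 with gag and 3969, 3694 and 4569 with NC. The gag-pol libraries lay below all control libraries, whereas the third library of gag and that of NC reached into the control range. The log2 fold change was -0.45 (standard error 0.083, adjusted p = 0.0018) with gag-pol, -0.40 (standard error 0.083, adjusted p = 0.0154) with gag and -0.36 (standard error 0.083, adjusted p = 0.00914) with NC. *PSAP*, whose product binds progranulin, had log2 fold changes of -0.22 (standard error 0.080, adjusted p = 0.0735) with gag-pol and -0.28 (standard error 0.080, adjusted p = 0.0889) with gag, both called lower by DESeq2 (adjusted p = 0.0386 and 0.0198). Those of *ASAH1*, *SMPD1*, *LIPA*, *PPT1* and *NPC2* lay between -0.23 and 0.23 over the 3 constructs.

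Neither transcription factor was called against control by edgeR, and DESeq2 called *TFE3* higher with gag. *TFEB* (chromosome 6, 41683978 to 41736259) measured 837, 939.7 and 809.6 in control cells, 819.8, 872 and 975 with gag-pol, 974, 959 and 1119.6 with gag and 801, 891 and 945 with NC. The gag libraries lay above all control libraries, at a log2 fold change of 0.24 (standard error 0.10, adjusted p = 0.31), while the values were 0.04 (standard error 0.10, adjusted p = 0.845) with gag-pol and 0.02 (standard error 0.10, adjusted p = 0.916) with NC. *TFE3* (chromosome X, 49028726 to 49043410) had 4515, 4216 and 5038 normalized counts in control cells, 4369, 4029 and 4611 with gag-pol, 5636, 4886 and 5931 with gag and 4401, 4039.5 and 4509 with NC. In every replicate gag was the highest of the 4 constructs, and its log2 fold change against control was 0.26 (standard error 0.070, adjusted p = 0.0792 by edgeR and 0.0143 by DESeq2). These are transcript levels, and the activity of both factors is set largely by where the protein resides, which RNA-seq does not measure.

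The next question was whether the constructs differed from one another. Between gag-pol and gag, *NEU1* and *TFE3* were lower and *IDS* higher with gag-pol, 3 of 35 genes where 6.46% of all genes were called (3.03% higher and 3.42% lower). The log2 fold changes were -0.46 (standard error 0.10, adjusted p = 0.00822) for *NEU1*, -0.34 (standard error 0.070, adjusted p = 0.00763) for *TFE3* and 0.43 (standard error 0.092, adjusted p = 0.00866) for *IDS*, and all 3 replicates shared the direction in each. Between NC and gag, 12 genes were called where 16.9% of all genes were, and 10 of the 12 were higher with NC (8.76% of all genes were higher and 8.12% lower). The 10 were *NPC2*, *IDS*, *CTSC*, *SCARB2*, *LAMP2*, *CTSB*, *GAA*, *ASAH1*, *CTSZ* and *MAN2B1*, and their rises ran from 15.7% for the alpha-mannosidase *MAN2B1* to 34.4% for the cholesterol carrier *NPC2*. In 9 of the 10 the NC library was above the gag library of the same number in all 3 replicates, and *NPC2* was higher in replicates 1 and 2 only. *MCOLN1* (-0.44 (standard error 0.14, adjusted p = 0.0385)) and *TFE3* (-0.34 (standard error 0.070, adjusted p = 0.00271)) were lower with NC than with gag.

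Between NC and gag-pol none of the 35 genes was called by edgeR or DESeq2, 4 had an unadjusted p under 0.05 and all 4 were higher with NC, and 0.0873% of all genes were called (0.00582% higher and 0.0815% lower). The mean of gag-pol and NC was also compared with the mean of gag and control. Here 9 genes were lower (*MCOLN1*, *NEU1*, *CTSD*, *CTSA*, *CLN3*, *GUSB*, *GLA*, *TFE3* and *GRN*) and 7 higher (*IDS*, *CTSC*, *CTSB*, *ASAH1*, *GAA*, *LAMP2* and *MAN2B1*). Of all genes, 24.7% were called in this comparison, 11.6% lower and 13.1% higher. *MCOLN1* (-0.52 (standard error 0.10, adjusted p = 0.0013)) had the lowest log2 fold change of the set and *IDS* (0.34 (standard error 0.065, adjusted p = 0.000819)) the highest. Over all 4 constructs, 18 of 35 genes differed where 20.6% of all genes did.

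Single libraries moved these counts, and the share of all genes called moved as well. With gag-pol against control, 10 calls became 6 without the first control library (8.23% of all genes called), the first gag-pol library (5.13%) or the third gag-pol library (4.97%) and 5 without the third control library (4.22%). *CTSD*, *GRN* and *NEU1* were called in all 12 fits that left out 1 library and all 3 that left out a replicate number. With NC, where 11.2% of all genes were called with every library, 9 calls became 2 without the third control library (2.10% of all genes), 6 without the first NC library (5.5%, 5 of the 6 lower) and 5 without the third (4.69%, 3 of the 5 lower). The 2 were *MCOLN1* and *CLN3*, which were called in all 15 such fits. With gag, 2 calls became 0 without the first or second library of control or gag, where between 0.188% and 0.525% of all genes were called. They became 1 without the first gag-pol library (1.05%) and 4 without the third control library (2.44%). For gag-pol against gag, 3 calls became 0 without the third gag-pol library (0.741% of all genes) or the first gag library (0.696%), and 5 without the third control library (10.6%) or the second NC library (8.57%). For NC against gag, 12 calls became 2 without the first gag library (5.36% of all genes), 6 without the second gag library (9.45%) or the first NC library (7.71%) and 7 without the second NC library (12.4%). The 18 genes that differed among constructs became 11 without the first gag library, where 11.3% of all genes did.

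The lysosome genes also differed between replicate numbers, each of which was treated here as 1 passage of the cells. The paper modeled harvest date beside construct. Harvest dates per library are not known here, so passage and harvest cannot be told apart. Replicate number had an effect on 24 of 35 genes where 52.8% of all genes were called. Between replicates 3 and 2, 14 genes were higher in replicate 3 and 4 lower, where 12.9% of all genes were higher and 14.1% lower (27.1% in all). The 14 included 9 of the 10 genes that fell with gag-pol, all but *TPP1*. The comparisons of replicate numbers and the gag-pol comparison share the control and gag-pol libraries, so such overlaps are not independent results. They were not counted over all genes. Between replicates 3 and 1, 13 genes were higher and 1 lower (20.6% and 21.0% of all genes), and 3 of the 10 (*CLN3*, *CTSA* and *GRN*) were among the 13. Between replicates 2 and 1, 9 genes were higher and 8 lower (15.9% and 14.7% of all genes), and 6 of the 10 were among the 8. *MCOLN1* differed most, by a log2 fold change of 0.86 (standard error 0.12, adjusted p = 6.13e-05) for replicate 3 against 2. In size this estimate was above those with gag-pol and NC, for NC by less than its standard error, and the differences were not tested. *CTSA* (0.59 (standard error 0.10, adjusted p = 0.000105)) and *CTSD* (0.54 (standard error 0.079, adjusted p = 3.72e-05)) followed. The third control library held the highest of all 12 values for 12 of the 35 genes, among them *MCOLN1*, *CTSA*, *CTSD*, *CLN3*, *GUSB*, *NEU1*, *GRN*, *LAMP1* and *TPP1*. The share of all genes with their highest value in that library was not counted.

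**Figure D4:**
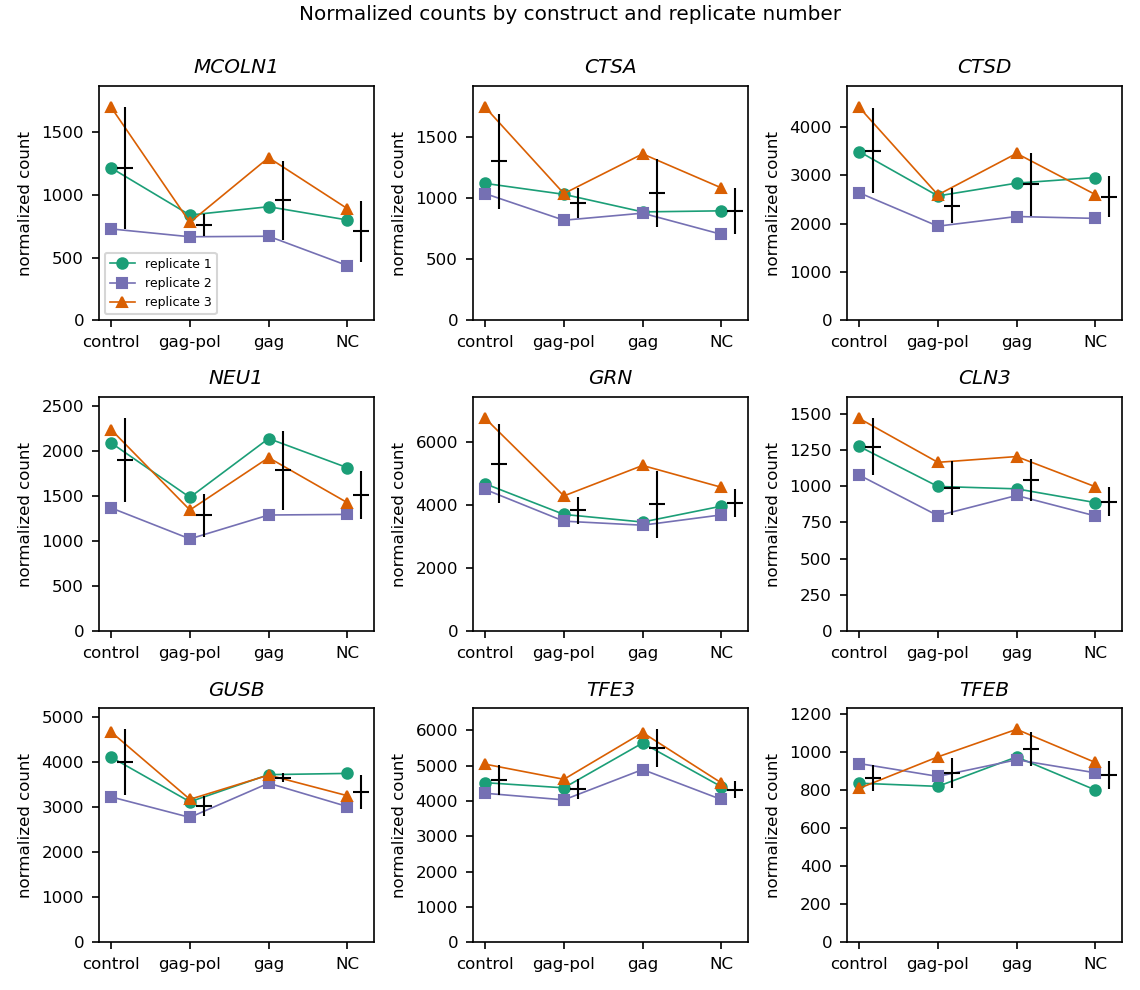
Normalized counts of 9 lysosome genes by construct, with lines joining libraries of one replicate number. Black bars are the mean ± SD of 3 libraries. For MCOLN1 the control libraries run from 728 to 1694, and gag-pol lies below control in each replicate.

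Of the 3 macrophage markers tested, *CD14* was the only one called against control by edgeR. Its raw counts were 111, 144 and 499 in control cells, 66, 52 and 182 with gag-pol, 97, 132 and 466 with gag and 57, 32 and 236 with NC, highest in the third library of each construct. It was lower with gag-pol (log2 fold change -1.33, adjusted p = 0.00161) and with NC (-1.28, adjusted p = 0.00264). The other two went in mixed directions with gag-pol, *CSF1R* at 0.18 (adjusted p = 0.886) and *ITGAM* at -0.24 (adjusted p = 0.704), and with NC they gave -0.61 (adjusted p = 0.593) and -0.78 (adjusted p = 0.156). The summed normalized counts of the 8 macrophage and leukocyte markers ran from 173 to 741 in control cells, 149 to 226 in gag-pol cells, 240.1 to 649 in gag cells and 92.1 to 347 in NC cells. *PTPRC* had 0 counts in 10 libraries and *CD163* in 11. Those of the 6 fibroblast markers ran from 1051 to 2047, 889.7 to 1189, 1018 to 1129 and 737 to 1064 in the same order, with *DCN*, *LUM* and *THY1* at 8 counts or fewer in every library. Of the 3 fibroblast markers tested, the collagen gene *COL3A1* was lower with gag-pol (log2 fold change -1.63, adjusted p = 0.017) and NC (-1.65, adjusted p = 0.0167), and *COL1A1* was lower with NC (-0.55, adjusted p = 0.0224). *COL3A1* had 54, 89 and 350 raw counts in control cells, so that the third control library was the highest here too. The part of these markers in the changes of the lysosome genes was not tested.

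Other genes of the same organelle are read against the share of all genes tested, which was 5.83% lower and 5.48% higher with gag-pol and 5.15% lower and 6.04% higher with NC. Of 21 tested subunits of the V-ATPase, the pump that acidifies the lysosome, 6 fell with gag-pol (28.6%) and 0 rose by edgeR, by DESeq2 or at an unadjusted p under 0.05. With NC 6 fell (28.6%) and 1 rose (4.76%). No subunit was called with gag, where 6 had an unadjusted p under 0.05 and DESeq2 called 2. *ATP6V0D1*, a subunit of the membrane sector, had the largest fall when the gag-pol and NC mean was set against the gag and control mean, with log2 fold changes of -0.44 (adjusted p = 0.00686) with gag-pol and -0.65 (adjusted p = 0.000743) with NC. The largest rise was that of *ATP6V1C2*, 0.66 (adjusted p = 0.026) with NC. Among 39 other lysosomal proteins 3 rose (7.69%) and 2 fell (5.13%) with gag-pol, shares near those of all genes, and 8 rose (20.5%) and 2 fell (5.13%) with NC. There *CTSO*, a cysteine protease, rose with NC (1.01 (adjusted p = 0.0207)).

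Of 28 genes for sorting to the lysosome, 2 rose (7.14%) and 4 fell (14.3%) with gag-pol, and 1 rose (3.57%) and 6 fell (21.4%) with NC, where the shares that rose are near or under those of all genes. *AP3S1*, part of an adaptor for vesicles bound for lysosomes, rose with gag-pol (0.37 (adjusted p = 0.0177)) and NC (0.47 (adjusted p = 0.00554)), and the tethering subunit *VPS18* fell with NC (-0.51 (adjusted p = 0.00546)). Nutrient sensing at the lysosome gave no call among 21 genes with gag-pol by edgeR (3 at an unadjusted p under 0.05, 1 by DESeq2), and *RRAGB*, *FLCN* and *TSC1* fell with NC (14.3%). *RRAGB* encodes a Rag GTPase that recruits mTORC1, and its log2 fold change was -0.64 (adjusted p = 0.0386) with NC. Of 31 autophagy genes 4 (12.9%) fell with gag-pol and 4 with NC, beside 5.83% and 5.15% of all genes. None was called higher by edgeR or DESeq2, with 2 genes above control at an unadjusted p under 0.05 with gag-pol and 0 with NC. *ATG4A*, a protease that processes ATG8 proteins, had the largest fall of that list when the gag-pol and NC mean was set against the gag and control mean, with log2 fold changes of -0.42 (adjusted p = 0.0144) with NC and -0.14 (adjusted p = 0.401) with gag-pol.

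The falls were then set beside the promoter sequences shown above. Of the 8 lysosome genes tested whose promoter held CACGTG, 6 fell with gag-pol and the same 6 with NC (*CLN3*, *CTSA*, *CTSD*, *LAMP1*, *MCOLN1* and *NEU1*), and *CD63* and *GAA* were not called. Of the 20 whose promoter did not hold it, 4 fell with gag-pol (*GLA*, *GRN*, *GUSB* and *TPP1*) and 2 with NC. The median log2 fold change of the 8 was -0.39 with gag-pol and -0.37 with NC, and that of the 20 was -0.08 and 0.03. *GAA* has the full CLEAR element in duplicate, yet its log2 fold changes were 0.05 (standard error 0.074, adjusted p = 0.729) with gag-pol and 0.18 (standard error 0.074, adjusted p = 0.121) with NC. These shares are a description of 28 genes, with no test.

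Across all genes with a promoter in the table, which were 70.3% of those tested and so do not stand for all, the shares that fell with gag-pol were close with and without the core. Of 1169 genes with CACGTG 6.42% fell with gag-pol, and of 10909 without it 6.31%. With NC the shares were 6.93% and 5.34%. For TCACGTGA, 24 of 201 genes (11.9%) fell with gag-pol and 6 rose, against 6.22% falling among the genes without it. With NC, 31 of the 201 (15.4%) fell and 4 rose, against 5.33% falling among the rest. The lysosome genes contributed 4 of the falling genes with this palindrome in each comparison.

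**Figure D5:**
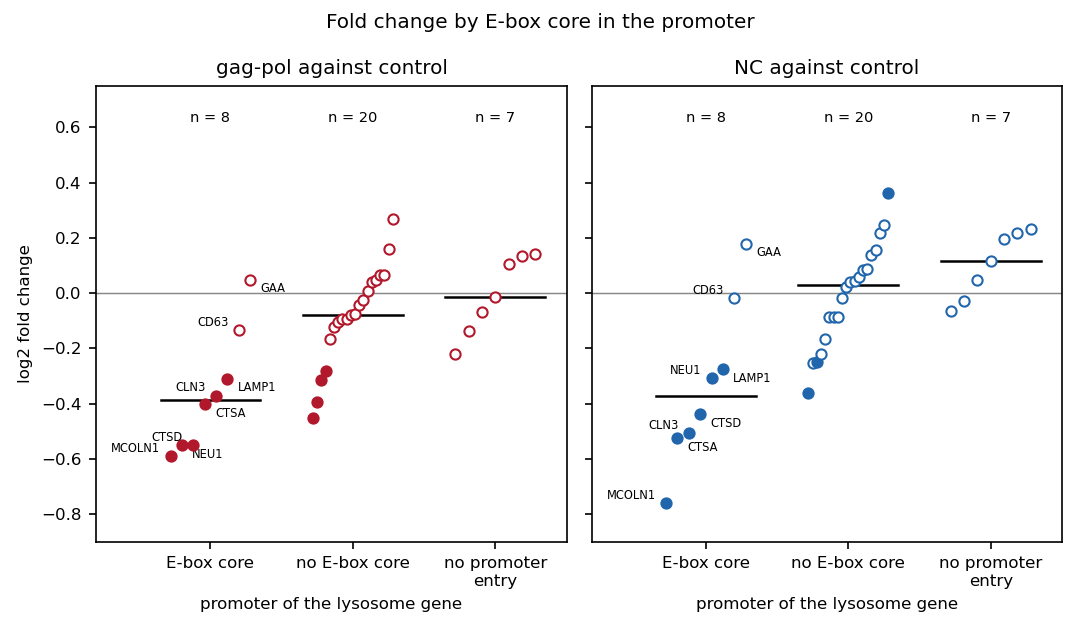
Log2 fold change of 35 lysosome genes with gag-pol (left) and NC (right) against control, split by whether the RefSeq promoter holds CACGTG, does not, or is missing from the table. Filled points have an adjusted p under 0.05 and bars are medians. The medians with the core are -0.39 and -0.37, and 6 of the 8 genes are filled in each panel.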

How the data were processed

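Poly(A) RNA of 12 libraries was sequenced as read pairs on a NovaSeq. According to the submitters' processing notes, the authors mapped reads to GRCh38.p13 with STAR 2.7.3, used SAMtools 1.8 and counted reads per gene with featureCounts. The deposited values are these raw counts. The annotation release, the strand setting and the treatment of reads with several positions are not given in the sources used here, which leaves uncertain the counts of genes that share exons across strands or have close copies.

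Counts were tested with edgeR 4.0.16 (limma 3.58.1, R 4.3.3) by the robust quasi-likelihood test on all 12 libraries, with terms for construct and for replicate number, TMM normalization and the edgeR filter by construct (minimum count 10, minimum total 15). P-values were adjusted over 17176 genes by the Benjamini-Hochberg method, with a threshold of 0.05 and 6 residual degrees of freedom. The biological coefficient of variation was 10.7%. A normalized count is the count after division by the library size times its TMM factor, rescaled to the mean total of 37579187. The standard error is the log2 fold change divided by the square root of F. The study's design names 3 independent passages, and each replicate number was treated as 1 passage: after removal of construct means, the correlations of the 18 library pairs with one number lay between 0.138 and 0.539, and those of 36 other pairs between -0.498 and 0.0720. Replicates are separate cultures of one line. With the term for replicate number, p-values are set against the spread left after average differences between passages are removed, and for that line only. For the pathway analysis the methods name pCDNA as control, whereas the labels name LifeAct-Dendra2.

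The members and gene lists were chosen with earlier results of these data known. Values in every library are given for *TFEB*, *TFE3*, *LAMP1*, *MCOLN1* and the 12 genes with the smallest adjusted p among the 4 constructs. From each related list the called genes with the largest rise and fall of the gag-pol and NC mean against the gag and control mean were named. The result of 1 gene that this rule would name is not reported here. The markers, *RRAGB* with *FLCN* and *TSC1* as a group, and the genes that overlap a lysosome gene were named after their values were seen. Positions are from GENCODE release 44 on GRCh38, and promoters from RefSeq on GRCh38.p14 (1 start per symbol). Alternatives were DESeq2 1.42.0, RLE factors, 2 other filters, *PEG10* left out, no replicate number, removal of a GC content and length trend, only the 6 libraries compared, and each library or replicate number left out. The scripts were tested on simulated counts that held no differences between replicate numbers, so that test does not cover how such differences are removed. Tables and figures were made with Python 3.11.15, pandas 2.3.3, numpy 2.4.6 and matplotlib 3.10.9.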

Additional observations from a re-analysis of the deposited data

How the results depend on the processing

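The counts of called lysosome genes kept within 1.5 times of the reported value with RLE factors, with at least 10 counts in every library, with *PEG10* left out and with a GC content and length trend removed. Both were known for 89.5% of genes tested. Without the replicate block, which leaves the passages in the residual spread, 0 lysosome genes were called for gag-pol, gag or NC against control, gag-pol or NC against gag, the pair gag-pol and NC against the other pair, and any difference among the 4 constructs, and at most 3 of all genes in any of these. Over all genes, the main fit called 186 for gag against control, 1109 for gag-pol against gag and 1942 for gag-pol against control. DESeq2 called 6 lysosome genes and 443 of all genes for gag against control, and 5 and 1603 for gag-pol against gag. A fit without the filter called 4 and 373 for gag against control, and 5 and 1533 for gag-pol against gag. With only the 6 libraries compared, 6 lysosome genes and 1131 of all genes were called for gag-pol against control. For gag-pol against gag these were 9 and 2628. The causes were not tested.

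Leaving out 1 library or 1 replicate number moved the counts, given here with the share of all genes called in the same fit. Calls ran from 4 (2.44%) to 11 (13.9%) for gag-pol against control. For gag against control they ran from 0 (0.127% without replicate 1) to 9 (4.26%), and for NC against control from 2 (2.1%) to 10 (13.5%). The range was 0 (0.0693% without replicate 1) to 5 (10.6% without the third control library) for gag-pol against gag. For NC against gag it was 0 (1.98%) to 17 (19.9%). For NC against gag-pol 0 were called in all 15 fits, where 0 to 3.11% of all genes were. The calls for the pair gag-pol and NC against the other pair ran from 9 (13%) to 18 (20.5%). Among the constructs they ran from 3 (3.67%) to 20 (18.8%) and among the replicate numbers from 14 (21.2%) to 27 (47.4%). A group left with 1 fewer library was assumed to vary like the others. *TFEB*, which was not called, had log2 fold changes from -0.0771 to 0.121 in these fits for gag-pol against control and from -0.0804 to 0.104 for NC against control. The sign turned for gag-pol without the third control library (-0.0645), the third gag-pol library (-0.000158) or replicate 3 (-0.0771), and for NC without the third control library (-0.0804) or replicate 3 (-0.0685). A gene that was not called is not thereby shown to be unchanged.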
